A study of Mus musculus with 4 samples.

Results

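The 10 genes described here encode the lipases of the lipid droplet with their cofactors, and the proteins through which adipose tissue takes up lipoprotein triglyceride. They are Pnpla2, Lipe, Mgll, Abhd5 and G0s2 on the droplet side and Lpl, Gpihbp1, Angptl4, Vldlr and Fabp4 on the uptake side. They were chosen by name, as the probes whose gene name in the scanner files equals one of these symbols, and are 10 of the 22066 genes on the arrays, with 17 probes in all. Each of the 17 probes was spotted once and gave a signal well above background on all 4 arrays, so no member was lost to a filter on dim probes. The question was how these genes differed between wild-type (WT) and ASK1-deficient mice (ASK1KO in the labels) and between interscapular brown adipose tissue (iBAT) and epididymal white adipose tissue (eWAT).

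ASK1 (Map3k5) is a stress-activated MAP kinase kinase kinase upstream of JNK and p38. Its gene was inactivated in the whole body, and the study used mice of the C57BL/6 J strain whose WT and ASK1-deficient colonies were kept apart. Expression was measured on 4 one-colour Agilent arrays, 1 for each genotype in each tissue, and each array received RNA pooled from 3 male mice aged 10 weeks with no stated treatment. No condition has a replicate array, so the spread between mice is unknown, genotype and colony cannot be told apart, and no test was run between genotypes within a tissue.

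Stored triglyceride is broken down in steps. Adipose triglyceride lipase (Pnpla2) takes off the first fatty acid, hormone-sensitive lipase (Lipe) acts mainly on the diglyceride, and monoglyceride lipase (Mgll) completes the process, while Abhd5 (CGI-58) activates Pnpla2 and G0s2 inhibits it. Triglyceride in circulating lipoproteins is instead split at the capillary wall by lipoprotein lipase (Lpl), which Gpihbp1 carries across the endothelium and holds there, and which Angptl4 inactivates. The VLDL receptor (Vldlr) binds the particles, and Fabp4 carries fatty acids inside the adipocyte.

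The signal is the background-corrected spot intensity on a linear scale, as deposited. The number of probes well above background lay between 28985 and 33389 of 55681, and no spot was saturated. The 75th percentile of the signal was 356 and 371 on the iBAT arrays of WT and ASK1-deficient mice and 673 and 634 on the eWAT arrays. Each array was therefore scaled by this percentile before ratios were taken. A ratio is given as the log2 value of the ASK1-deficient minus the WT array, averaged over the probes of a gene, where 1 is 2-fold. The error beside a ratio is the one that the scanner software assigns to the spots, 0.20 on the log2 scale for a gene with 1 probe, and it covers the array and not the mice. Because a tissue was ground whole, fewer cells of a type and less RNA per cell cannot be told apart. The first Map3k5 probe, the check on the genotype, gave 448 and 117 in WT and ASK1-deficient iBAT and 701 and 194 in eWAT, and the other one had log2 ratios of -0.06 and -0.51.

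Angptl4, G0s2, Lpl and Mgll carry most of what follows, and the probes that measured them are shown with the first 30 of their 60 bases, 5′ to 3′, as the files list them. Their coordinates are given on mm9, as in the scanner files. The Angptl4 probe lies at chr17:33911880-33911939 on the minus strand, and that of G0s2 at chr1:195098925-195098984, also on the minus strand. Lpl has a probe at chr8:71425050-71425109 and another at chr8:71430267-71430326, both on the plus strand, and they start at bases 1340 and 3484 of the transcript to which the files assign both. Mgll is measured by 4 probes. Those at chr6:88714636-88714695 and chr6:88716266-88716325 are assigned to one transcript variant, and those at chr6:88775976-88776035 and chr6:88778292-88778351 to another, all on the plus strand. The Lpl pair and the first pair of Mgll are printed because probes of the same gene gave different values. No genome of this build was used, so exons and untranslated regions were not assigned.
Angptl4: atggtgctgttgtaggtgctgtggatgcac
G0s2: acagcccagagctcagatggaaagtgtgca
Lpl, first probe: cgaggtttccacaaataaaacctactcctt
Lpl, other probe: gaacaccaacccacatgcaaaaccccacaa
Mgll, first probe: tatgatgagctggctcatatgttgaagggg
Mgll, second probe: atttgtgagacttatttggcagataatatt

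In both tissues the inhibitor of lipoprotein lipase was higher and the inhibitor of adipose triglyceride lipase was lower in ASK1-deficient mice. Angptl4 had a log2 ratio of 1.02 in iBAT and 0.74 in eWAT, and G0s2 had -0.54 and -0.67. The log2 ratios of the lipases and Abhd5 lay between -0.53 (Lpl) and -0.13 (Pnpla2, within its scanner error) in iBAT and between 0.04 and 0.24 in eWAT. Angptl4 in iBAT was the single member at least 2-fold apart, and no member was 2-fold lower in either tissue. Among all genes measured, 0.835% of 14377 were 2-fold or more higher in ASK1-deficient iBAT and 1.02% were lower to that extent, and in eWAT these shares were 0.286% and 0.865% of 15377.

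**Figure D1:**
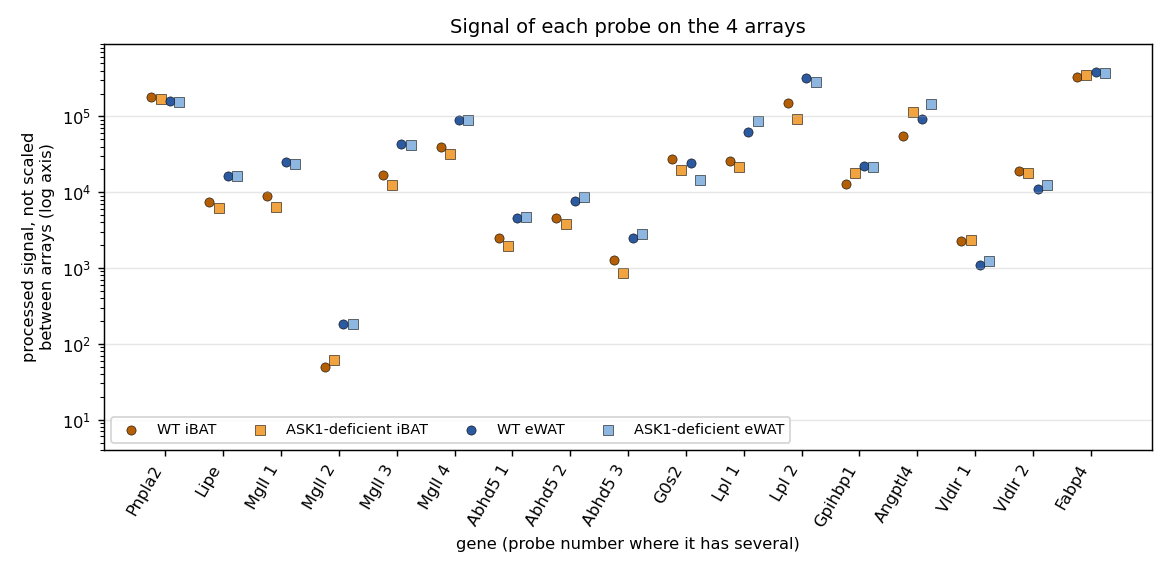
Processed signal of each of the 17 probes on the 4 arrays, on a log axis, before scaling between arrays (1 spot per point, no replicate arrays). Angptl4 lay higher and G0s2 lower on the ASK1-deficient array of each tissue. Heights of different probes cannot be compared.

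Angptl4, the secreted inactivator of lipoprotein lipase, gave a signal of 54326 in the WT and 114882 in the ASK1-deficient iBAT pool. In eWAT it gave 92195 in the WT and 145017 in the ASK1-deficient pool. The ASK1-deficient array was thus the higher one in each tissue, and the WT eWAT signal lay between the iBAT signals of the genotypes before scaling. The ratios were 2.03 and 1.67, or log2 ratios of 1.02 ± 0.20 and 0.74 ± 0.20 (scanner error). Of all genes measured, 0.793% had a higher log2 ratio than Angptl4 in iBAT and 0.683% in eWAT. Under the other background correction and scalings tried, its log2 ratio ran from 0.93 to 1.15 in iBAT, which is below 2-fold where arrays were centred on their median or the series table was used, and from 0.65 to 0.77 in eWAT.

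Lpl, the lipase of the capillary wall, was lower in ASK1-deficient iBAT at both probes. At the first the signal was 25707 in the WT and 21612 in the ASK1-deficient iBAT pool, and at the other 149014 and 92565, giving log2 ratios of -0.31 and -0.75. In eWAT the probes went apart. The first gave 62923 in the WT and 86987 in the ASK1-deficient eWAT pool, a log2 ratio of 0.55, and the other 322289 and 286345, a log2 ratio of -0.08, each ± 0.20. Their mean was -0.53 ± 0.14 in iBAT, where 5.41% of genes were lower, and 0.24 ± 0.14 in eWAT, and the sign in eWAT turned when the brighter probe alone was used. The lower Lpl value in iBAT therefore held at both probes, and a direction in eWAT was not given by both.

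Gpihbp1, the endothelial protein that holds Lpl in the capillary lumen, gave 12709 in the WT and 17720 in the ASK1-deficient iBAT pool. In eWAT the pair of signals was 21885 and 21697. This made a log2 ratio of 0.42 ± 0.20 in iBAT, exceeded by 8.68% of genes, and 0.08 ± 0.20 in eWAT, within the scanner error and -0.01 without scaling. Of 12 markers of capillary endothelium, 10 lay above 0 in iBAT, with a median log2 ratio of 0.14 and a range from -0.66 (Erg) to 0.30, and their summed signal was 68628 in the WT and 78766 in the ASK1-deficient iBAT pool. Of all genes in iBAT, 37.7% lay above the 0.02 of Fabp4 and 52.7% above the -0.09 of Vldlr. In eWAT 3 of the 12 endothelial markers lay above 0, with a median of -0.10. The part of endothelial content in the Gpihbp1 value was not tested.

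Vldlr, the VLDL receptor, was measured by a pair of probes. They gave 2300 and 2310 at chr19:27321104-27321163, and 18845 and 18123 at chr19:27324050-27324109, in WT and ASK1-deficient iBAT. In eWAT they gave 1107 and 1247, and 11014 and 12368. Their mean log2 ratio was -0.09 ± 0.14 in iBAT, with a sign that turned to 0.03 after quantile normalization, and 0.26 ± 0.14 in eWAT, where both probes were above 0 and 8.44% of genes had a higher ratio. Fabp4, the fatty acid carrier of adipocytes and endothelium, gave 331750 and 351478 in iBAT and 379701 and 369040 in eWAT. Its log2 ratios of 0.02 and 0.05 were within the scanner error, and the scaling turned their sign in both tissues.

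Among the droplet lipases, Pnpla2 was the least different in iBAT. Its probe at chr7:148645928-148645987 gave 180273 in the WT and 171632 in the ASK1-deficient iBAT pool, and 158999 and 154140 in eWAT. The log2 ratios were -0.13 ± 0.20 and 0.04 ± 0.20, both within the scanner error, and both changed sign with the scaling. In iBAT 40.6% of all genes had a lower ratio than Pnpla2. Lipe, at chr7:26165828-26165887, gave 7383 in the WT and 6269 in the ASK1-deficient iBAT pool and 16128 and 16316 in eWAT. The ASK1-deficient minus WT difference of this hormone-sensitive lipase was -0.30 ± 0.20 (log2) in iBAT, where 19.2% of genes were lower, and 0.10 ± 0.20 in eWAT.

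Mgll, the last enzyme of the pathway, was lower in ASK1-deficient iBAT at 3 of its 4 probes. These 3, in order of position, gave 8919, 16827 and 39752 in WT and 6338, 12468 and 32018 in ASK1-deficient iBAT, log2 ratios of -0.55, -0.49 and -0.37. The second probe went the other way, with 48.8 and 61.2, a log2 ratio of 0.27 ± 0.26. That probe is the dimmest of the 17, and the lowest signal well above background on the WT iBAT array was 19.7. All 4 probes stayed within 0.09 of 0 in eWAT, where the probe at chr6:88775976-88776035 gave 43465 in the WT and 42112 in the ASK1-deficient pool. The gene's mean was -0.29 ± 0.11 in iBAT, where 20.3% of genes were lower, and 0.05 ± 0.10 in eWAT. The eWAT value was within its scanner error and fell below 0 without scaling and after quantile normalization.

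Abhd5, the activator of Pnpla2, was lower in ASK1-deficient iBAT and higher in ASK1-deficient eWAT at each of its 3 probes. At chr9:122277200-122277259 the signals were 2472 in the WT and 1931 in the ASK1-deficient iBAT pool, and 4602 and 4730 in eWAT. The probe at chr9:122288857-122288916 gave 4630 and 3764 in iBAT and 7554 and 8525 in eWAT, and the one at chr9:122289983-122290042 gave 1268 and 862 in iBAT and 2486 and 2825 in eWAT. Their mean log2 ratio was -0.47 ± 0.12 in iBAT, where 7.52% of genes were lower, and 0.22 ± 0.12 in eWAT, where 11.2% were higher. Neither sign changed with the scaling.

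G0s2, the inhibitor of Pnpla2, was lower in ASK1-deficient mice in both tissues. Its signal was 27370 in the WT and 19609 in the ASK1-deficient iBAT pool, and 24186 and 14269 in eWAT. The ASK1-deficient eWAT array held the lowest of the 4 signals. The difference was -0.54 ± 0.20 (log2) in iBAT, below which 5.16% of genes lay, and -0.67 ± 0.20 in eWAT, below which 2.02% lay. G0s2 was the single member below 0 in eWAT, and under the other scalings its log2 ratio ran from -0.63 to -0.40 in iBAT and from -0.76 to -0.65 in eWAT.

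**Figure D2:**
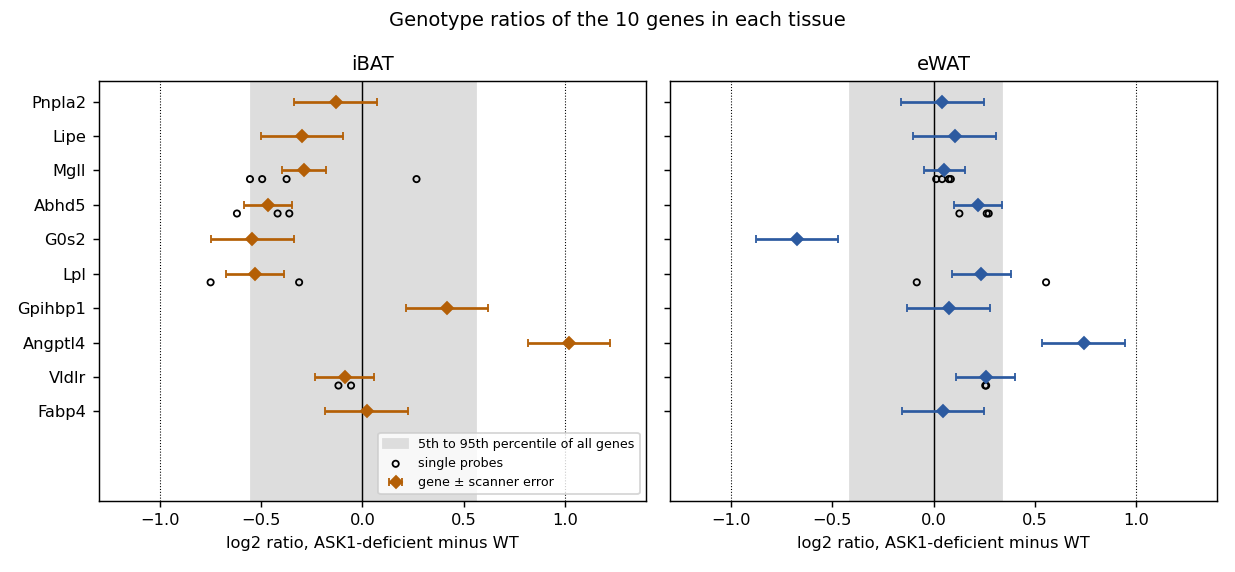
Log2 ratio, ASK1-deficient minus WT, of the 10 genes in iBAT and eWAT (diamonds, with the scanner error as bars; circles, single probes of genes with several; grey, the 5th to 95th percentile of all genes; dotted lines, 2-fold). Angptl4 in both tissues and G0s2 in eWAT lay outside the grey band. The signs of Pnpla2 and Fabp4 in both tissues, of Vldlr in iBAT and of Mgll and Gpihbp1 in eWAT turned with the scaling.

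In iBAT 3 members lay above 0 and 7 below, with a median log2 ratio of -0.21 beside -0.07 for all genes. Of all genes in iBAT, 47.3% lay below Vldlr (-0.09) and 62.3% below Fabp4 (0.02), so the share below 0 lies between these. The median stayed below 0 under each scaling tried, between -0.30 and -0.07, and the split was 5 and 5 after quantile normalization and 2 and 8 after median centring. In eWAT 9 members lay above 0 and 1 below, with a median of 0.09 beside 0.02 for all genes, and the split became 5 and 5 without scaling. The signs of 6 members, Pnpla2, Lipe, Mgll, Abhd5, Lpl and Vldlr, were opposite in the tissues. The eWAT values of Pnpla2, Lipe and Mgll and the iBAT values of Pnpla2 and Vldlr were within their scanner error. In Lpl, Abhd5 and Mgll the gap was over 2 times its scanner error, with an eWAT minus iBAT difference of ratios of 0.77 ± 0.20, 0.69 ± 0.17 and 0.34 ± 0.15 in turn (scanner error), and these differences were not tested.

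**Figure D3:**
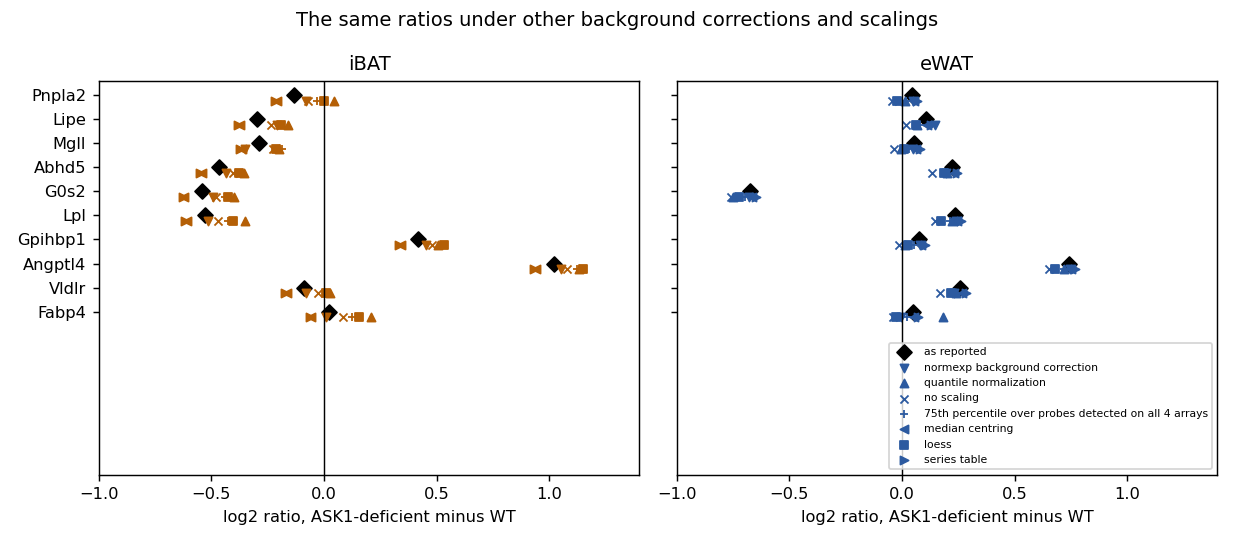
Log2 ratio, ASK1-deficient minus WT, of each gene as reported (black diamonds) and under 7 other background corrections or scalings (coloured symbols just below), in iBAT and eWAT. Angptl4 stayed above 0 and G0s2 below 0 in both tissues under all of them, while Pnpla2 and Fabp4 crossed 0 in both tissues.

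A limma model with terms for tissue and genotype was also fitted over the 4 arrays and 14057 genes. Its genotype term takes the effect as equal in both tissues. Its residual, with 1 degree of freedom, is how far the genotype effect differs between the tissues, and not the spread between mice. The p-values for tissue given further on use the same residual, so they do not measure the spread between mice either. No gene of the 14057 had an adjusted p under 0.05 for genotype, and 770 had an unadjusted p under 0.05. Angptl4 and G0s2 were the 2 members among these 770. For Angptl4 the term was 0.88 ± 0.16 (SE) with a limma p of 0.00113 and an adjusted p of 0.469, and for G0s2 it was -0.61 ± 0.15 with a p of 0.00564 and an adjusted p of 0.632. Both fail the correction.

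Markers of other cell types moved between the same pools. Their counts below 0 in iBAT are read against the share over all genes given above. All 12 macrophage markers measured in iBAT lay above 0, with a median log2 ratio of 0.75, and their summed signal was 15875 in the WT and 21548 in the ASK1-deficient iBAT pool. Of 9 adipocyte markers, 6 lay below 0 in iBAT, with a median of -0.28 and summed signals of 676062 and 649860, a median close to that of Mgll and Lipe. Of 8 brown adipocyte markers, 7 lay below 0 in iBAT, with a median of -0.37. In eWAT the macrophage median was -0.03 and the adipocyte median 0.08. Hepatocyte transcripts were lower in ASK1-deficient eWAT, with a median of -3.33 over 8 measured markers. All 15 were well above background on the WT eWAT array and 8 on the ASK1-deficient one, and Alb (albumin) gave 3234 and 158. In iBAT 5 hepatocyte markers were detected in the WT and 11 in the ASK1-deficient pool. The part of these cell types in the members' values was not tested.

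The sequence before the members' start sites was also read. RefSeq (GRCm38.p6) gave the 250 bases before the start for 6 members, in 9 windows, and Angptl4, Lpl, Gpihbp1 and Fabp4 were not among them. Each window was searched on both strands for the TATA box with letters TATAAA, the CCAAT box, the E-box CACGTG, the cAMP response element TGACGTCA and the PPAR response element of direct repeats with 1 base between, which occur in 12.4%, 33.8%, 6.02%, 1.55% and 0.0335% of 32851 windows of this length. CACGTG was found in 1 of the Mgll windows at position -44 from the start, and in 1 of the Lipe windows at position -155, and CCAAT in 1 Vldlr window. The windows of G0s2, Pnpla2 and Abhd5 held none of these letters. The E-box is a sequence that basic helix-loop-helix factors can bind, and its presence is a description only. The windows printed, 5′ to 3′ and with CACGTG in capitals, are those of Mgll and Lipe, which hold it, and of G0s2, which was lower on both ASK1-deficient arrays. They lie for G0s2 at chr1:193273189-193273438 on the minus strand, for Mgll at chr6:88724162-88724411 on the plus strand and for Lipe at chr7:25395988-25396237 on the minus strand.
G0s2: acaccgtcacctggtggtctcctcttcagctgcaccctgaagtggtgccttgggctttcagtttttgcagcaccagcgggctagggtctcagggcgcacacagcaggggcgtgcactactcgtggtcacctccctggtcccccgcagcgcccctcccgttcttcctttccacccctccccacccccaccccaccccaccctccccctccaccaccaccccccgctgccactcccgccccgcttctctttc
Mgll: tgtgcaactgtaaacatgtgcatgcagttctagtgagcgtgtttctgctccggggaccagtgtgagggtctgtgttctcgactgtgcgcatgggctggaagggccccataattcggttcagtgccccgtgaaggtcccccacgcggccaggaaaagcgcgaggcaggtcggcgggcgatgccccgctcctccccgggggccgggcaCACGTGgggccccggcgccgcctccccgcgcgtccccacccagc
Lipe: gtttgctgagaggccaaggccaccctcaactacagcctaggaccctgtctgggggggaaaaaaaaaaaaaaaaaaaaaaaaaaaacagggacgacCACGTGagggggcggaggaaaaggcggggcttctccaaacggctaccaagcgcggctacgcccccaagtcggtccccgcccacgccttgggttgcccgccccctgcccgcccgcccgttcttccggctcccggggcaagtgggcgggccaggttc

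Between the tissues, the inhibitor G0s2, Pnpla2, Vldlr and Fabp4 were higher in iBAT, and Mgll and Lpl were higher in eWAT. These 4 and 2 members passed an adjusted p under 0.05 in the limma fit. The genes called numbered 7799 of 14057 as scaled here and 6893 with the series table, from p-values that do not measure the spread between mice. As scaled here, 30.8% of the 14057 genes were called higher in iBAT and 24.6% higher in eWAT. The members' shares are read against those. Vldlr had the largest difference of the 10, except without scaling (0.82, against -1.59 for Mgll), at 1.66 ± 0.16 (SE, 4 arrays), or 3.17-fold, with an adjusted p of 0.000338. In WT mice it was 3.57-fold and in ASK1-deficient mice 2.81-fold higher in iBAT.

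G0s2 was 2.24-fold higher in iBAT, a log2 difference of 1.16 ± 0.15 with an adjusted p of 0.000999. Between the WT pools the difference was 1.10, and between the ASK1-deficient pools 1.23. For Pnpla2, which G0s2 inhibits, it was 1.01 ± 0.15, 2.02-fold, with an adjusted p of 0.00185, and the genotypes gave 1.10 and 0.93. Fabp4 was 0.71 ± 0.14 higher in iBAT (adjusted p 0.00694), with 0.73 and 0.70 in the genotypes. Enzyme and inhibitor thus stood higher on the same pair of arrays, and each kept this direction in both genotypes.

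Mgll was 1.67-fold higher in eWAT, with a log2 difference of -0.74 ± 0.16 and an adjusted p of 0.00884, and Lpl 1.59-fold, with -0.66 ± 0.21 and 0.0363. Both differences were larger on the ASK1-deficient arrays, -0.91 for Mgll and -1.05 for Lpl, than on the WT arrays, -0.57 and -0.28. Lipe at -0.41 ± 0.17 (adjusted p 0.0786), Abhd5 at -0.28 ± 0.20 (0.273), Gpihbp1 at 0.31 ± 0.16 (0.149) and Angptl4 at 0.30 ± 0.16 (0.151) did not pass. For Abhd5 the genotypes gave 0.06 and -0.62. In order of the difference Vldlr came first, then G0s2 and Pnpla2, whose intervals of 1 standard error overlapped.

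Some of these calls changed with the scaling between the tissues. Without scaling the median of all genes moved from 0.07 to -0.77. Vldlr, Mgll and Lpl kept their call under each other background correction and scaling tried, with highest adjusted p values of 0.00488, 0.00845 and 0.0324 in turn. Pnpla2, G0s2 and Fabp4 lost theirs under at least 1 of them, with highest adjusted p values of 0.268, 0.0960 and 0.381, and Fabp4 turned to -0.20 after quantile normalization. Lipe passed as higher in eWAT under normexp (0.00570), quantile normalization (0.00992), no scaling (0.00178), the percentile over detected probes (0.0422) and loess (0.0159). Without scaling Abhd5 (-1.13, adjusted p 0.00453), Gpihbp1 (-0.54, 0.0390) and Angptl4 (-0.55, 0.0305) passed as higher in eWAT as well. With the brightest probe of each gene, Mgll (-0.48, adjusted p 0.0524) and Lpl (-0.53, 0.0597) no longer passed. Fits that left out 1 array had no genotype term, and their spread came from the 2 arrays of the other tissue, with the lone array assumed to vary like them. With the genotype term alone left out, each of the 10 genes stayed on its side of the threshold. Leaving out an eWAT array, WT or ASK1-deficient, ended both calls, at adjusted p values of 0.0506 and 0.0607 for Mgll and 0.0772 and 0.183 for Lpl. Lpl was lost without the ASK1-deficient iBAT array (0.0787) and without a filter on dim probes (0.0997) too, G0s2 without the WT iBAT (0.0787) or the ASK1-deficient eWAT array (0.0649), and Fabp4 without the WT eWAT array (0.0538). Lipe, Abhd5 and Gpihbp1 passed without the WT iBAT array, at 0.0187, 0.0416 and 0.0202.

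**Figure D4:**
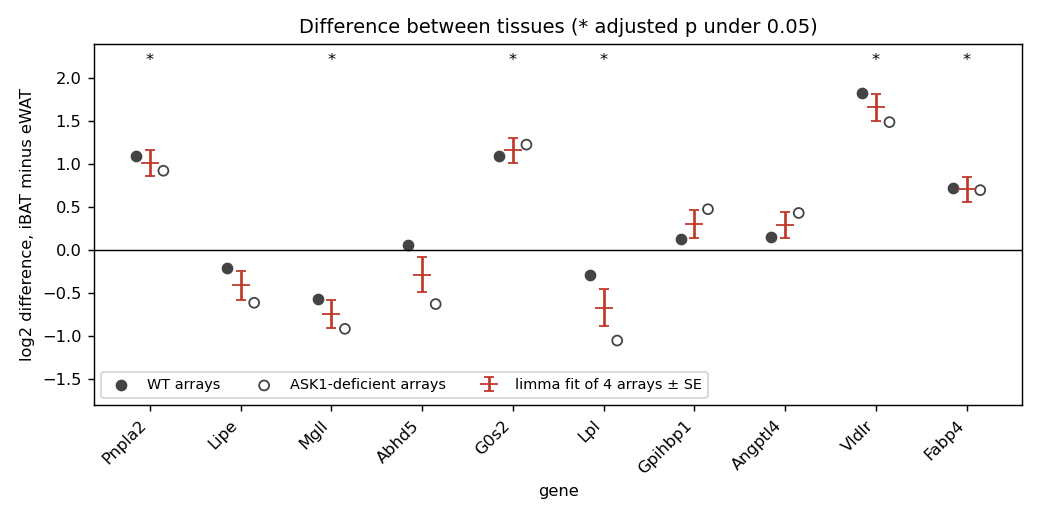
Log2 difference, iBAT minus eWAT, of each gene on the WT arrays (filled), on the ASK1-deficient arrays (open) and in the limma fit of all 4 (red, ± SE), with an asterisk where the adjusted p was under 0.05. Vldlr, G0s2 and Pnpla2 were highest in iBAT. Angptl4, Gpihbp1 and Fabp4 changed sign under at least 1 other scaling.

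The tissues differed in cell content on the same arrays. Brown adipocyte markers were higher in iBAT in 7 of 7 fitted, with a median of 6.64, and Lep, a white adipocyte hormone, differed by -4.49, as the tissue labels would have it. Skeletal muscle markers were higher in iBAT in 10 of 10 fitted, with a median of 7.53, and macrophage markers were called higher in eWAT in 11 of 12, with a median of -2.65. Muscle also makes Lpl and Vldlr, and macrophages make Lpl and Fabp4. The part of muscle and macrophages in the members' differences was not tested.

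The other genes of these pathways were read from 6 lists. The proteins that mature or control lipoprotein lipase, besides Angptl4 itself, had a median of -0.30 in iBAT, with 11 of 16 measured below 0, and -0.04 in eWAT. Angptl8, a feeding-induced secreted protein of the same family, was the one of them 2-fold apart, with 8570 in the WT and 4412 in the ASK1-deficient iBAT pool and 4240 and 2347 in eWAT, log2 ratios of -1.02 and -0.77. Angptl8 and Angptl4 thus went in opposite directions in both tissues, and the iBAT value of Angptl8 was -0.88 at its smallest under the other scalings. In the tissue fit 7 of 16 were called higher in iBAT and 4 in eWAT, among them Apoc2, the activator of Lpl, at -1.97 ± 0.15 (adjusted p 0.000137), and Angptl8 at 1.81 ± 0.15 (0.000210).

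The receptors and uptake proteins had a median of -0.09 in iBAT, which turned to 0.01 under 1 scaling, and -0.11 in eWAT, over 14 measured in each. Acsl5, which activates fatty acids, had -1.62 in iBAT and -0.11 in eWAT. Slc27a2, a fatty acid transporter that liver makes strongly, was lower in the ASK1-deficient eWAT pool by at least 12.2-fold. Its signal was 12629 in WT iBAT and 270 in WT eWAT, and on the eWAT arrays the median log2 ratio was -3.33 for the hepatocyte and -0.84 for the brown adipocyte markers. Their part in its value was not tested. In the fit 3 of 13 were higher in iBAT and 8 in eWAT, the most different being Lsr, the lipolysis-stimulated lipoprotein receptor, at -3.72 ± 0.18 (adjusted p 3.2e-05).

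On the side of the droplet, 8 of 11 coat proteins and cofactors lay below 0 in iBAT, with a median of -0.16, and 5 of 11 in eWAT, with a median of 0.07 that turned to -0.01 under 1 scaling. Fabp3, the fatty acid binding protein of muscle and brown fat, was the single one 2-fold apart, at -3.02 in eWAT, from 1600 in WT to 196 in ASK1-deficient mice. Brown adipocyte markers had a median of -0.84 and muscle markers of -0.42 on the same pair of arrays. Plin5, the perilipin of oxidative tissues, was higher in iBAT by 4.23 ± 0.15 (adjusted p 1.3e-05). The other hydrolases of acylglycerols and esters had a median of -0.29 in iBAT, with 10 of 13 below 0, and 0.02 in eWAT, which turned to -0.07 without scaling. None of these 13 was 2-fold apart as scaled here, and Aadac, a hydrolase made in liver, was lower in the ASK1-deficient eWAT pool by at least 8.66-fold, again with the hepatocyte markers.

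The hormonal control of lipolysis, the receptors, G proteins, cyclases, kinases and phosphodiesterases that act on Lipe and on the droplet, had a median of -0.14 in iBAT, with 13 of 20 below 0. In eWAT the median was 0.07, and -0.02 without scaling. Ptger3, a prostaglandin E receptor that lowers cAMP, was the one 2-fold apart, at -1.17 in iBAT and -0.05 in eWAT. Between tissues Pde4d was higher in iBAT by 3.81 ± 0.17 and Npr3, the natriuretic peptide clearance receptor, in eWAT by a log2 difference of -3.24 ± 0.15. Their adjusted p was 2.7e-05 each.

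Re-esterification returns fatty acids to triglyceride. In iBAT 11 of the 14 genes listed with it lay below 0, with a median of -0.28, and 3 were 2-fold lower in ASK1-deficient mice. These were Mogat1, a monoacylglycerol acyltransferase, with 762 in the WT and 266 in the ASK1-deficient iBAT pool, a log2 ratio of -1.58, Gk, glycerol kinase, with 2498 and 1098, a log2 ratio of -1.25, and Agpat2, with a mean of -1.14 over its probes, which was -0.89 at its smallest under the other scalings. In eWAT the 3 had log2 ratios of 0.08, -0.02 and -0.02. The list's median there was 0.12, with 10 of 14 above 0. In the fit, Pdk4 was higher in iBAT by 5.41 ± 0.15 and Gk by 4.87 ± 0.28 (adjusted p 7.7e-06 and 5.8e-05). Pdk4 is a pyruvate dehydrogenase kinase in this list and not an enzyme that esterifies fatty acids.

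**Figure D5:**
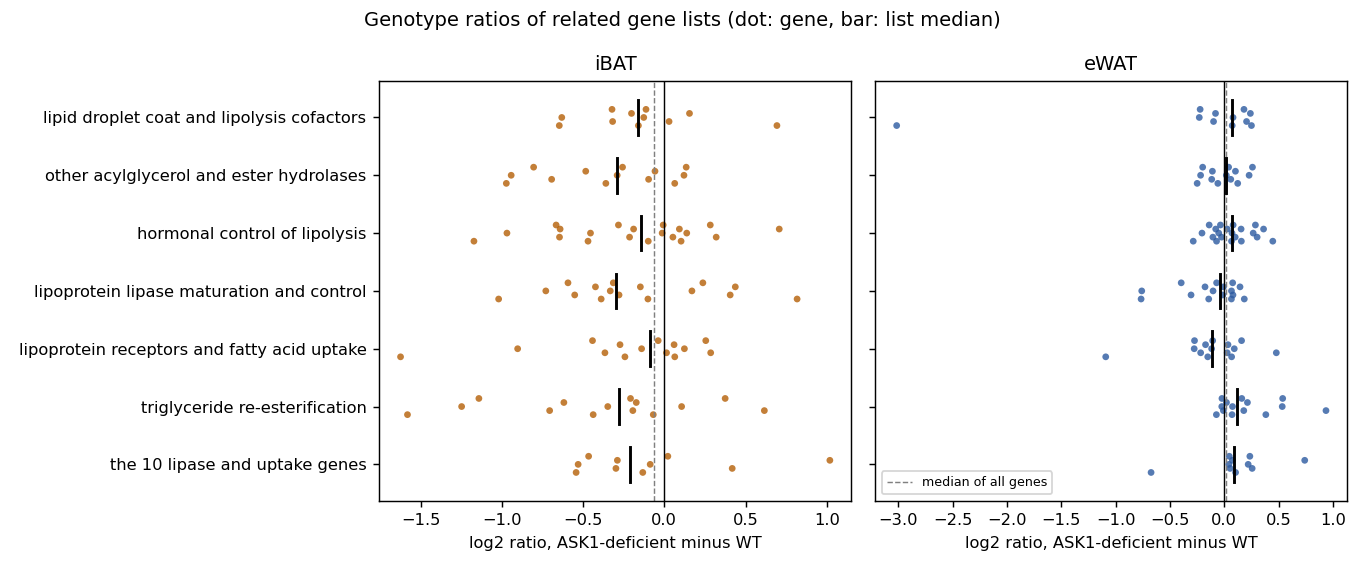
Log2 ratio, ASK1-deficient minus WT, of the genes of 6 related lists and of the 10 genes described here (dots; black bars, list medians; dashed line, median of all genes), in iBAT and eWAT. All medians lay below 0 in iBAT, where that of the receptors turned to 0.01 under 1 scaling, and they were between -0.11 and 0.12 in eWAT, where 3 of the lists changed sign without scaling.

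Likeness over the 4 arrays was measured as the distance between log2 values, each gene centred on its own mean, among 150 candidates, the other members and the genes of the lists. The member nearest to Lipe was Abhd5, at 0.192, and the one nearest to Mgll was Lpl, at 0.227. For Pnpla2 it was Fabp4, at 0.320. For both Mgll and Lpl, the nearest of all candidates was Fabp5, another fatty acid binding protein, at 0.154 and 0.162. For Gpihbp1 it was Eng, an endothelial receptor, at 0.196. For Lipe it was Pcsk6, at 0.112, and for Pnpla2 Slc27a4, at 0.1025, each nearer than the member named above. For Abhd5 it was Cebpa, at 0.162, for Vldlr Prkar2b, at 0.213, and for Fabp4 Adcy6, at 0.158. The nearest candidate was thus often a gene of another list. Angptl4 and G0s2 had no near neighbour, with nearest distances of 0.634 and 0.526. These distances describe 4 arrays.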

How the data were processed

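Adipose RNA was measured on 4 one-colour arrays, assigned to genotype and tissue from the labels. The authors deposited the output of Agilent Feature Extraction 10.7.3.1 for each array, which gives a linear, background-corrected intensity for each spot, with no scaling between arrays. In a second, series-wide file the deposited signal is that intensity over the array's median. Of 34844 gene names, 22147 matched RefSeq, giving 22066 genes.

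Control and outlier spots were left out, spots of a probe were averaged on the log2 scale, and arrays were aligned at their 75th percentile. A probe was used where the software called a majority of its spots well above background on both arrays of a tissue. A probe below that on 1 array gave only a bound against the lowest signal well above background. Tissue and genotype were fitted with limma over 4 arrays (14057 genes, Benjamini-Hochberg adjustment). On simulated data with 200 genes set 2 apart (log2), the fit recovered 200 and called 10 unchanged genes. The simulated noise had the same SD, 0.158, for each gene, with no genotype effect in either tissue. Against an effect of 2 this noise is small, so the run checks the code. It says nothing on the smaller differences of the members or on the spread between mice. No pseudocount was added.

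The members, the lists and the rule for names (the members, list genes 2-fold apart between genotypes and up to 4 of each list with the largest tissue difference) were chosen with earlier results of these data known. Fabp5, Eng, Pcsk6, Slc27a4, Cebpa, Prkar2b and Adcy6 are named as nearest neighbours. A few list genes are not reported here. Sequences of probes are those of the scanner files, and promoters those of RefSeq. The number of arrays limits the precision. The alternatives were normexp (offset 50), quantile normalization, no scaling, a percentile over detected probes, median centring, loess, the series-wide file, other filters, the brightest probe, a 1.5-fold threshold, other terms and leaving out each array. The analysis used R 4.3.3, limma 3.58.1, Python 3.11.15, numpy 2.4.6, pandas 2.3.3 and matplotlib 3.10.9.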

Additional observations from a re-analysis of the deposited data

Results flagged for a closer look

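Of the 10 genes, 3 had genotype ratios of opposite sign in the tissues, with a difference larger than 2 times its scanner error. The eWAT minus iBAT difference of the log2 ratios was 0.77 for Lpl, 0.69 for Abhd5 and 0.34 for Mgll, each lower in ASK1-deficient iBAT and higher in ASK1-deficient eWAT as a mean of its probes. The difference was not tested, since each condition has 1 array. For Abhd5 all 3 probes went this way. For Lpl 1 of 2 probes did, and for Mgll 3 of 4. The eWAT mean of Mgll, 0.05 ± 0.10, was within its scanner error. It fell below 0 without scaling (-0.034) and after quantile normalization (-0.003), so a rise of Mgll in eWAT is not shown.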

How the results depend on the processing

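Each condition has 1 array, so no array could be left out within a tissue and no replicate numbers pair the arrays. The fit over the 4 arrays has genotype as a term and so compares the tissues within genotype. The 10 genes' median genotype ratio kept its sign in both tissues under each background correction, scaling, filter and choice of probe, but in eWAT it was 0.0022 without scaling. The fit of genotype and tissue together, which gives 1 value for both tissues, had a median of -0.07, against 0.09 in eWAT. The number of genes 2-fold apart moved with the background correction, the filter and the threshold. In iBAT it was 266, and 106 under normexp, 1127 without a filter on dim probes and 1262 at 1.5-fold. In eWAT it was 177, and 60 under normexp, 114 where a probe had to be well above background on each of the 4, 1036 without a filter and 622 at 1.5-fold. Without a filter, or at the lower threshold, more genes can pass by construction, and the cause of the change under normexp was not tested.

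The 10 genes' median difference between tissues, 0.30 on the log2 scale, was -0.27 after quantile normalization, -0.54 without scaling and -0.036 after loess, and between 0.025 and 0.62 when 1 array was left out in turn, in fits that also lacked the genotype term. The number of genes that differed between tissues, 7799, was 4913 without the WT eWAT array, 5162 without the ASK1-deficient eWAT array and at most 8656 when 1 array was left out. Under the other settings it lay between 6893 with the series table and 10864 without scaling. Single genes changed sign in this comparison. Gpihbp1 was -0.54 without scaling. Angptl4 was -0.34 after quantile normalization, -0.55 without scaling, -0.11 after loess, and from -0.21 (without the ASK1-deficient iBAT array) over -0.074 (without the WT eWAT array) to 0.81 when 1 array was left out. Fabp4 was -0.20 after quantile normalization and -0.13 without scaling. Leaving the scale out shifts all genes by one constant, while the cause was not tested for the other settings.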
